A study of Mus musculus with 6 samples.

Results

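The caspase and inflammasome genes described here are 8 of the 23793 rows of a differential expression table made from mouse pro-B cells. They were chosen by symbol as caspases (Casp1, Casp2, Casp4, Casp6, Casp8 and Casp9) together with the inflammasome sensor Nlrp3 and the adaptor ASC, whose gene is Pycard. Each of the 8 symbols matched 1 row, and the authors had tested all 8 of these rows. The induced group was 3 libraries of the C57BL/6 pro-B cell line i660BM, which carries a doxycycline-inducible PU.1, given 70 ng/ml doxycycline for 48 h. The non-induced group was 3 libraries of the same line without doxycycline. Cells of both groups were grown with interleukin 7. No group received doxycycline without induction of PU.1, so effects of the drug and of the factor cannot be told apart. All libraries came from 1 line, and the labels do not say whether they came from separate cultures, so p-values may measure technical spread.

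Caspases are proteases made as inactive precursors. Initiator caspases are activated on assembled platforms and cleave executioner caspases, which dismantle the cell in apoptosis. In an inflammasome, a sensor such as NLRP3 gathers ASC, which recruits the precursor of caspase-1, and active caspase-1 matures interleukin 1 beta and interleukin 18 and cuts gasdermin D to open membrane pores. This machinery is best known in macrophages, whereas in B cell precursors the apoptotic caspases remove cells that fail a checkpoint. Spi1 encodes PU.1, a transcription factor of the ETS family that acts in myeloid and B cells and binds purine-rich DNA with a GGAA centre.

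The table gave 1 FPKM value per gene and group, that is, fragments scaled to the length of the transcript and the depth of the library, and no value per library. FPKM is scaled per length, so levels of different genes may be compared. Spi1 checked the labels, at 246 FPKM in induced and 36.0 FPKM in non-induced cells (authors' deposited table). Steps between the lowest values put the depth at about 123000000 fragments for the induced and 117000000 for the non-induced group, so that 1 FPKM of a 1-kilobase transcript stood for roughly 123 and 117 fragments. These depths are approximate and their difference is not interpreted. The pro-B markers Pax5 (128 FPKM in induced and 98.6 FPKM in non-induced cells) and Ebf1 (83.4 and 62.6 FPKM) were present in both groups and called higher in induced cells, whereas Kit was listed at 0 in both. Called genes, and those described as having risen or fallen, are tested rows whose deposited q-value was under 0.05.

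The promoters of Nlrp3, Casp1, Casp2 and Pycard are shown because each held a match to a PU.1 binding motif and each gene was called. They are the 250 bases before the RefSeq start site (GRCm38.p6) nearest to the start of the gene in the deposited table, on the strand of the gene. Capitals mark GAGGAA, the PU-box core, or its reverse complement TTCCTC, and in Pycard the longer site GAGGAAGT, which appears as ACTTCCTC and contains the core.
Nlrp3, plus strand, chr11:59542436-59542685: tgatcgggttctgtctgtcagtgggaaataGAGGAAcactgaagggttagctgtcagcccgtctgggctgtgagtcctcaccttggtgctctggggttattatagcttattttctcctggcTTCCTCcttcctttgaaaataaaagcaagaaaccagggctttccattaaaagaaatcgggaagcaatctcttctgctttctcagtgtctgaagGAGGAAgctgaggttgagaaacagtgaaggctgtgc
Casp1, plus strand, chr9:5298267-5298516: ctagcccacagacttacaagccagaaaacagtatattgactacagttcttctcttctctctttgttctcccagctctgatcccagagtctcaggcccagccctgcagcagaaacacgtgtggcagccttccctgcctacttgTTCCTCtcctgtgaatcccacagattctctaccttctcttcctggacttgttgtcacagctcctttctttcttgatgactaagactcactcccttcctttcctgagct
Casp2, plus strand, chr6:42264735-42264984: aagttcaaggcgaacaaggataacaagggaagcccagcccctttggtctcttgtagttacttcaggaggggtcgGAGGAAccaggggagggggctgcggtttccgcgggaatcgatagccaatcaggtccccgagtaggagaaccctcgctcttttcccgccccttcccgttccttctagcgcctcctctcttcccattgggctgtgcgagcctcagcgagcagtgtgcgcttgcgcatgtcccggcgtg
Pycard, minus strand, chr7:127993868-127994117: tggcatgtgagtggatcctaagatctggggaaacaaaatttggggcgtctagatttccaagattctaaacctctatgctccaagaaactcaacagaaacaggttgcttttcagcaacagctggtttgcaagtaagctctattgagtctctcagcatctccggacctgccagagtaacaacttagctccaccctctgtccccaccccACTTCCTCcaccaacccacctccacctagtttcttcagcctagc
The Nlrp3 window held 3 PU-box cores, of which the nearest to the start ended 31 bases before it. Windows with 3 or more cores were 141 of 32817 RefSeq windows of the same length (0.43%). Casp1, Casp2 and Casp6 each held 1 core, and Pycard held 1 core inside its longer site. Over all windows, 23.3% held at least 1 core and 2.44% held the longer site. The ETS-IRF composite (GGAA, any 2 bases, GAAA) and the interferon element core (GAAA, any 2 bases, GAAA), searched on both strands, were in 2.3% and 2.97% of all windows, and in the windows of all 8 genes neither combination of letters was found. The windows of Casp4, Casp8 and Casp9 held no match to any of the 4 motifs. For Casp8 the only RefSeq window began its transcript 7129 bases inside the locus that the deposited table gives, so a start farther upstream was not searched. Matches were found before genes that rose (Nlrp3, Casp1, Casp2), a gene that fell (Pycard) and a gene that was not called (Casp6). A match is a stretch of letters and does not show that PU.1 was bound there.

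**Figure D1:**
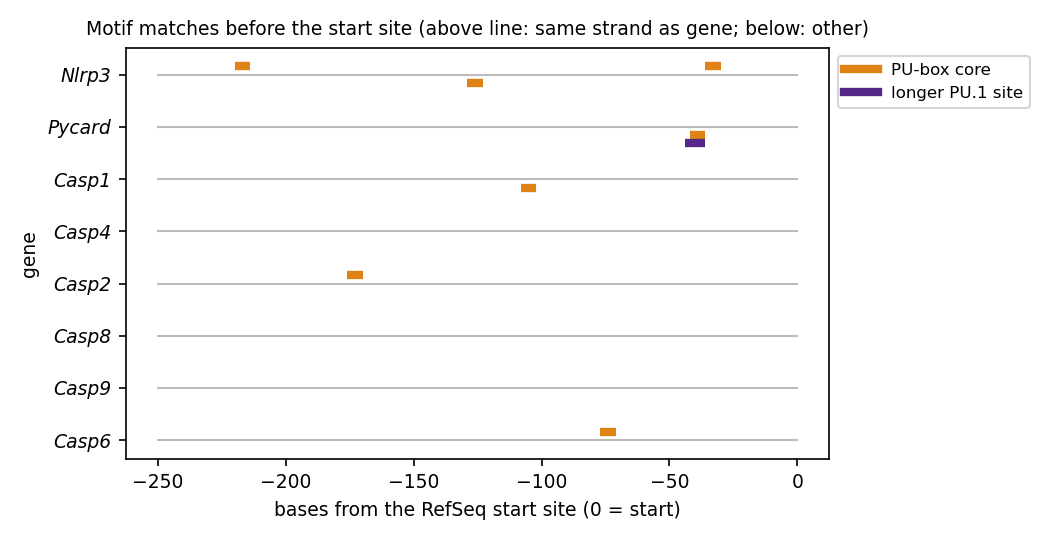
Motif matches in the 250 bases before the start site of the 8 genes, with distance from the start in bases on the x axis. Bars above a line match on the strand of the gene and bars below it on the other strand; Nlrp3 has 3 PU-box cores, Pycard has the longer site, and Casp4, Casp8 and Casp9 have no bar.

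Of the 8 genes, 4 rose and 1 fell with PU.1 induction, and 3 were not called. Nlrp3 more than doubled, Casp2, Casp1 and Casp8 were higher by less than 30%, and Pycard was lower by 18.8%. That made 5 of 8 called (62.5%), against 35.1% of all 10657 tested rows in the authors' deposited table. Calls in the upward direction were 19.0% and calls in the downward direction 16.1% of tested rows. With so few genes, the difference between these shares was not tested. The median log2 change was 0.10 over the 8 genes and -0.01 over all tested rows, and the median absolute log2 change was 0.26 against 0.17. Because RNA was taken from bulk cells, a change in the share of cells of a type and a change of RNA per cell cannot be told apart. When the deposited statistic was instead read as a normal deviate to give p-values, Nlrp3 alone of the 8 stayed called. By the deposited q-value together with a change of at least 1.5-fold, Nlrp3 was again the 1 called gene of the 8, against 6.34% of tested rows called higher and 3.85% called lower.

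**Figure D2:**
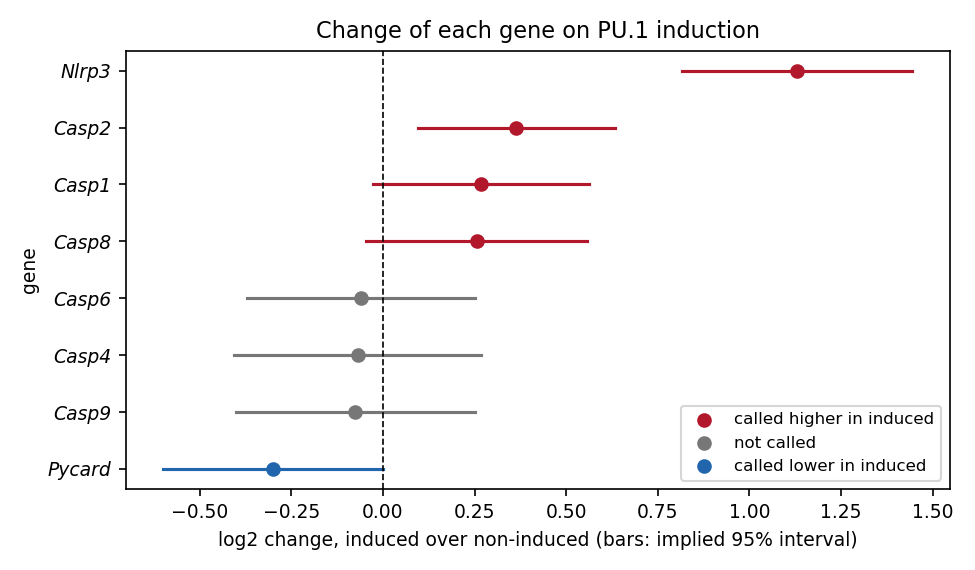
Log2 change (induced over non-induced) of the 8 genes in the authors' deposited table, with bars for the 95% interval implied by the test statistic. Nlrp3 lies at 1.13 with its interval clear of 0, the intervals of Casp1 and Casp8 cross 0 although both were called, and that of Pycard ends at 0.

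Nlrp3, the sensor, had the largest change of the 8. Its level was 6.96 FPKM in induced cells and 3.18 FPKM in non-induced cells (authors' deposited table), a 2.19-fold difference (log2 1.13, implied standard error 0.16, Cuffdiff q = 0.000287). The implied standard error is the log2 change divided by the test statistic, a relation that the table does not state, and the resulting 95% interval ran from 1.76-fold to 2.72-fold. A change of this absolute size or larger was found in 4.04% of all tested rows, and in 3.44% of the 2383 other rows within 2-fold of its mean level. Calls of at least 2-fold in the upward direction made up 2.51% of tested rows. Nlrp3 lies on chromosome 11 at 59541568 to 59566956 on the plus strand (mm10, a protein-coding gene), and no other annotated gene overlaps it. In the deposited table its locus begins farther in, at 59542685, beside the start site of the promoter shown, and the other RefSeq window of Nlrp3, farther upstream, is not described here. Measured beside Nlrp3, 8 of 11 tested pro-B markers rose and 0 fell by the authors' Cuffdiff q-value. Among all tested rows 19.0% rose and 16.1% fell, and no difference from these shares was tested. The count includes Rag1, at 0.434 FPKM in induced and 0.00348 FPKM in non-induced cells, so its induced level let it be tested. The counts were also 8 and 0 at an unadjusted p under 0.05 and with normal p-values. The 12 rows of the pro-B list summed to 4197 FPKM in induced and 2766 FPKM in non-induced cells. Of 13 rows of markers of macrophages, monocytes and granulocytes, 5 were tested and all of these rose. The 8 untested rows were under 0.5 FPKM in both groups. Cd14 and Cd33 were listed at 0 FPKM in non-induced cells, so only their level in induced cells let them be tested. The count of rises is therefore not read as a result. Without a finite change, Cd14 and Cd33 had no normal p-value, and the other 3 tested rows were called with normal p-values too. The 13 marker rows summed to 26.5 FPKM in induced and 2.29 FPKM in non-induced cells. Lyz2, which may share fragments with its close copy Lyz1, made up most of that sum in induced cells, at 15.2 FPKM in induced and 0.361 FPKM in non-induced cells. Cd68 stood at 6.86 and 1.85 FPKM and Mpeg1 at 0.907 and 0.0514 FPKM in induced and non-induced cells. In induced cells Cd33 stood at 1.99 FPKM and Cd14 at 0.995 FPKM. Of the untested rows, Csf1r was listed at 0.192 and 0 FPKM and Itgam at 0.151 and 0.0133 FPKM in induced and non-induced cells. Fcgr1 was listed at 0.187 and 0.00641 FPKM, Emr1 at 0.0512 and 0 FPKM, and Mpo at 0 and 0.00358 FPKM, in the same order. Both groups had 0 FPKM listed for Elane, S100a8 and S100a9. The part of these markers in the rise of Nlrp3 was not tested. The 7 rows of T and NK cell markers summed to 0.208 FPKM in induced and 0.313 FPKM in non-induced cells.

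Pycard, which encodes the adaptor that links sensor to caspase-1, was the 1 gene of the 8 that fell. It stood at 8.89 FPKM in induced cells and 10.9 FPKM in non-induced cells (authors' deposited table; log2 -0.30, implied standard error 0.15, Cuffdiff q = 0.00818). Its implied interval ran from 0.66-fold to 1.00-fold, and 28.5% of tested rows changed by at least as much. Pycard lies on chromosome 7 at 127989708 to 127993867 on the minus strand (mm10), where GENCODE places Gm45205, a transcript still to be verified, on the opposite strand. Whether strand was used in counting is not given in the sources used here. Sensor and adaptor thus had changes of opposite sign, which differed by 1.43 on the log2 scale with an implied 95% interval of 1.00 to 1.86, if their errors are independent. The level of Pycard was 1.28 times that of Nlrp3 in induced cells and 3.44 times in non-induced cells.

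Casp1 encodes the protease of the canonical inflammasome. Its level was 23.4 FPKM in induced cells and 19.4 FPKM in non-induced cells (authors' deposited table; log2 0.27, implied standard error 0.15, Cuffdiff q = 0.0115). The implied interval ran from 0.98-fold to 1.48-fold and so included no change, although the authors' q-value passed the threshold. Changes at least as large were found in 32.6% of tested rows. Casp4, the gene of mouse caspase-11, which binds lipopolysaccharide in the cytosol, was not called. It stood at 6.75 FPKM in induced cells and 7.08 FPKM in non-induced cells (authors' deposited table; log2 -0.07, q = 0.656), with an implied interval of 0.75-fold to 1.21-fold. Casp1 (5298517 to 5307265) and Casp4 (5308828 to 5336783) lie 1562 bases apart on the plus strand of chromosome 9 (mm10), with Casp12 8646 bases beyond Casp4. Their changes differed by 0.34 on the log2 scale, with an implied interval of -0.11 to 0.78, so a difference between these neighbours was not resolved. Casp12 was not tested and was listed at 0.136 FPKM in induced and 0.0546 FPKM in non-induced cells.

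Casp2 and Casp8 were the most abundant of the 8 genes in both groups, and both rose slightly. Casp2 encodes the initiator that is activated on the PIDDosome. It reached 55.1 FPKM in induced cells and 42.9 FPKM in non-induced cells (authors' deposited table; log2 0.36, implied standard error 0.14, Cuffdiff q = 0.000287), with an implied interval of 1.07-fold to 1.55-fold. It lies on chromosome 6 at 42264985 to 42282508 on the plus strand (mm10), where the snoRNA gene Gm25108 overlaps it. Casp8 encodes the initiator that death receptors recruit through FADD and that also restrains necroptosis. Its level was 51.7 FPKM in induced cells and 43.3 FPKM in non-induced cells (authors' deposited table; log2 0.26, implied standard error 0.15, Cuffdiff q = 0.011), and its implied interval of 0.97-fold to 1.47-fold included no change. It lies on chromosome 1 at 58795374 to 58847503 on the plus strand (mm10), where Gm37760, also still to be verified, overlaps it. Changes as large as that of Casp2 were found in 12.8% of the 3062 other tested rows within 2-fold of its level, and changes as large as that of Casp8 in 23.8% of 3134 such rows.

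Casp9 and Casp6, the genes of an initiator and an executioner of apoptosis, were not called. Casp9, which is activated by APAF1 on the apoptosome, was listed at 3.22 FPKM in induced cells and 3.40 FPKM in non-induced cells (authors' deposited table; log2 -0.08, q = 0.613). Its implied interval was 0.76-fold to 1.19-fold. Casp9 lies on chromosome 4 at 141793612 to 141815976 on the plus strand (mm10) and shares its locus in the table with Cela2a, which was listed at 0 in both groups. Casp6, whose product cleaves nuclear lamin A, stood at 8.21 FPKM in induced cells and 8.55 FPKM in non-induced cells (authors' deposited table; log2 -0.06, q = 0.71), with an implied interval of 0.77-fold to 1.19-fold. It lies on chromosome 3 at 129901425 to 129914103 on the plus strand (mm10). For Casp4, Casp6 and Casp9 these intervals leave room for changes of about the size called for Casp1 and Casp8, so a small change could not be resolved.

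In induced cells the order of levels was Casp2, Casp8, Casp1, Pycard, Casp6, Nlrp3, Casp4 and Casp9. In non-induced cells Casp8 came before Casp2, and Nlrp3 was the lowest of the 8, below Casp9. Without values per library, the spread that would separate neighbours in these orders is not known. The highest level was 17.1 times the lowest in induced cells and 13.6 times in non-induced cells. The 6 caspases summed to 148 FPKM in induced cells and 125 FPKM in non-induced cells. Set among all tested rows, Casp2 stood above 82.5% of them in induced cells and 77.3% in non-induced cells. Nlrp3 stood above 29.9% of them in induced cells and 18.6% in non-induced cells.

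**Figure D3:**
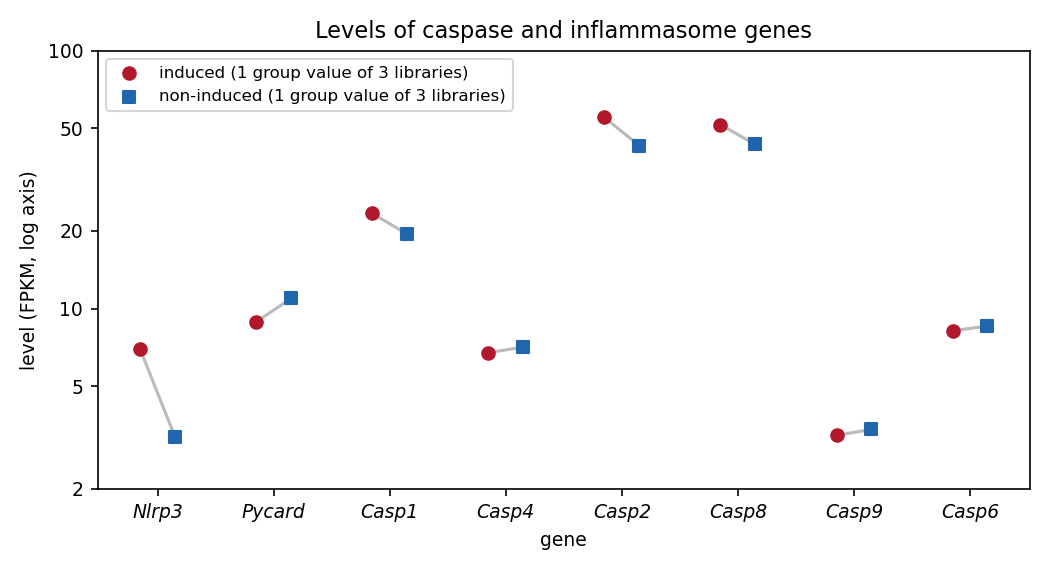
Level of each gene in FPKM on a log axis, 1 group value from 3 libraries for induced (circles, left) and non-induced cells (squares, right), with no error bars because the table has no library values. The line of Nlrp3 is the steepest, with 6.96 FPKM in induced and 3.18 FPKM in non-induced cells.

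**Figure D4:**
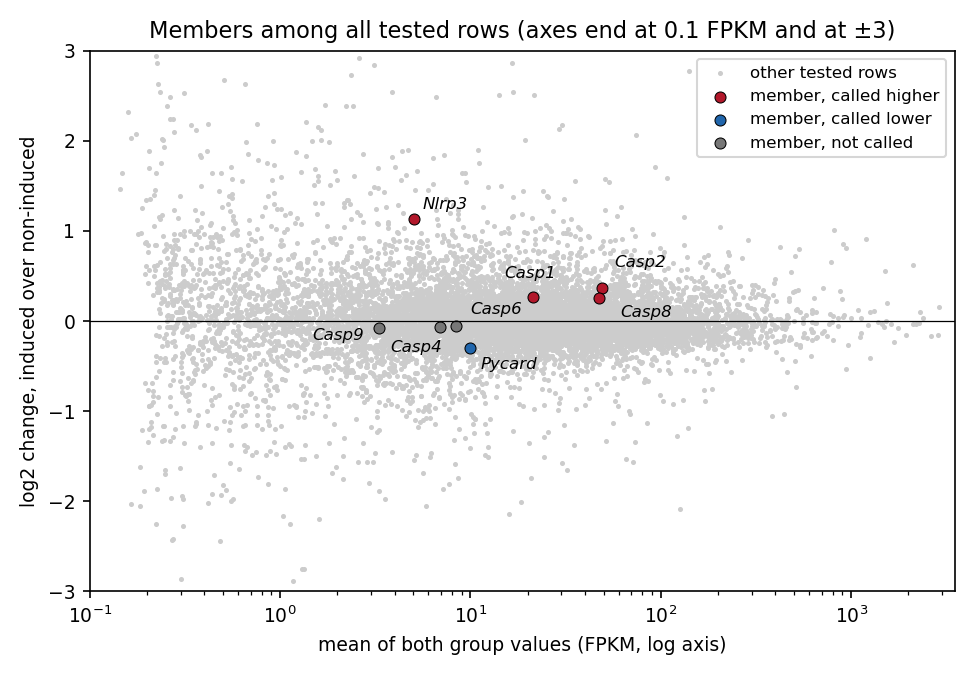
Log2 change (induced over non-induced) against the mean of both group values in FPKM on a log axis, for 10550 tested rows (grey; 107 more lay outside the axes or had no finite change) and the 8 genes (coloured by call). Nlrp3, at 1.13, lies above most grey rows of its level, and the other 7 genes lie inside the dense part of the cloud.

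The other genes of these pathways were described from lists chosen with earlier results of these data known. Over 103 rows other than the 8, 71 had been tested, of which 27 rose (38.0%) and 10 fell (14.1%), beside 19.0% and 16.1% of all tested rows. The 27 include P2rx7 and the joint row of Naip6 and Naip7, whose induced levels may have let them be tested. List counts by the deposited q-value are read against the same shares, and no difference from them was tested. With normal p-values, 1612 of 10628 rows were called in either direction, and the share at an unadjusted p under 0.05 is not given here. List counts with normal or unadjusted p-values are therefore not read against 19.0% and 16.1%.

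Other inflammasome sensors and NOD-like receptors moved in both directions. Of 20 rows, 9 were tested, with 3 called higher and 3 lower (2 and 1 with normal p-values), and the median log2 change of the tested rows was -0.01. Nlrc4, the sensor that works with NAIP proteins to detect flagellin and secretion system proteins, stood at 1.99 FPKM in induced and 1.49 FPKM in non-induced cells (authors' deposited table; log2 0.43). Naip5 was also higher, at 2.23 FPKM in induced and 1.43 FPKM in non-induced cells (log2 0.64), as was the joint row of Naip6 and Naip7, at 0.323 and 0.0872 FPKM (log2 1.89), in the authors' deposited table. The Naip genes are closely similar copies, so fragments can have been split among them. The joint row was low in non-induced cells, so its induced level may have let it be tested and enter the count of 3. Lower levels were called for Nlrp10 (3.10 FPKM in induced and 4.46 FPKM in non-induced cells), Nlrc3 (8.72 and 11.9 FPKM) and Nlrp1b (0.212 and 0.292 FPKM) in the authors' deposited table. A further 11 rows were untested and under 0.5 FPKM in both groups, among them the DNA sensor gene Aim2 at 0.095 FPKM in induced and 0.0546 FPKM in non-induced cells.

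For inflammasome activation and regulation, 12 of 19 tested genes rose and 0 fell by the authors' Cuffdiff q-value (12 and 0 at an unadjusted p under 0.05, 10 and 0 with normal p-values). The median log2 change of the tested genes was 0.39 beside -0.01 over all tested rows. Another 4 rows were untested and under 0.5 FPKM in both groups. The 5 listed guanylate-binding protein genes, whose interferon-induced products act on pathogen membranes, were all higher. Gbp2 stood at 71.1 FPKM in induced and 30.2 FPKM in non-induced cells (authors' deposited table; log2 1.24, implied standard error 0.15). Gbp3 (log2 0.97), Gbp7 (0.78), Gbp5 (0.67) and Gbp4 (0.39) followed in the authors' deposited table, and these genes too are similar copies that may share fragments. P2rx7, the ATP-gated channel upstream of NLRP3, stood at 0.428 FPKM in induced and 0.0819 FPKM in non-induced cells (authors' deposited table; log2 2.38, implied standard error 0.88). Its non-induced level was like that of untested rows such as Nod2 (0.0769 FPKM in induced and 0.0592 FPKM in non-induced cells). Its induced level may therefore have let P2rx7 be tested and enter the count of 12. Txnip, which encodes a thioredoxin-binding protein, stood at 96.2 and 49.9 FPKM in induced and non-induced cells (log2 0.95), and the receptor gene Tlr4 at 9.33 and 6.77 FPKM (log2 0.46), in the authors' deposited table. Irgm1 (log2 0.43), Trim30a (0.55), Pstpip1 (0.39), which encodes a binding partner of pyrin, and Card6 (0.27) were also higher in the authors' deposited table. Nek7, the kinase that binds NLRP3, was not called, at 47.8 FPKM in induced and 44.8 FPKM in non-induced cells (log2 0.09, q = 0.431) of the authors' deposited table.

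Of the substrates and pore proteins, 4 of 8 were tested, with 1 called higher and 1 lower, and neither was called with normal p-values. Gsdmd, the pore protein cut by caspase-1 and caspase-11, was higher at 17.0 FPKM in induced and 13.2 FPKM in non-induced cells (authors' deposited table; log2 0.37, q = 0.000287). Ninj1, whose product ruptures the membrane late in lytic death, was lower at 10.2 FPKM in induced and 12.9 FPKM in non-induced cells (authors' deposited table; log2 -0.33, q = 0.00478). The cytokine genes that caspase-1 serves were not tested, and Il1b was listed at 0 in both groups and Il18 at 0.010 FPKM in induced and 0.0281 FPKM in non-induced cells.

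The genes that act with the apoptotic initiators were read initiator by initiator. For caspase-9, Apaf1, the platform gene, rose to 28.7 FPKM in induced cells, against 21.8 FPKM in non-induced cells (authors' deposited table; log2 0.40), and was the 1 gene of the intrinsic pathway list called with normal p-values. Cycs, the gene of cytochrome c, which triggers APAF1, was not called (authors' deposited table; log2 -0.16, q = 0.236). Aifm1, a mitochondrial flavoprotein gene that is not part of the platform, fell to 39.4 FPKM in induced cells, against 48.2 FPKM in non-induced cells (authors' deposited table; log2 -0.29), and 4 of the 6 genes of the list, all tested, were not called. For caspase-2, Pidd1 was higher (13.6 FPKM in induced and 9.84 FPKM in non-induced cells, log2 0.47) and Cradd, the adaptor RAIDD, was lower (8.74 and 12.8 FPKM, log2 -0.55) in the authors' deposited table. For caspase-8, the list of death receptors, adaptors and necroptosis genes had 4 rises and 3 falls among 11 tested rows, and 2 rises and 0 falls with normal p-values, so that none of the 3 falls was called there. Tnfrsf10b, the receptor for TRAIL, stood at 1.52 FPKM in induced and 0.502 FPKM in non-induced cells (log2 1.60) of the authors' deposited table. Zbp1 (log2 0.84), a nucleic acid sensor, Mlkl (0.37), the necroptosis effector, and Tnfsf10 (0.30), which encodes TRAIL, were higher too in the authors' deposited table. Fas (log2 -0.58), Tnfrsf21 (-0.30) and the adaptor gene Fadd (-0.29) were lower in the authors' deposited table, and Ripk3, a necroptosis kinase gene, was 1 of 3 untested rows at 0.021 FPKM in induced cells and listed at 0 in non-induced cells.

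Among inhibitors of apoptosis proteins, 2 of 5 tested genes were higher and 0 lower by the authors' Cuffdiff q-value (2 and 0 at an unadjusted p under 0.05 and 2 and 0 with normal p-values). Birc3, which encodes cIAP2, stood at 16.6 FPKM in induced and 7.75 FPKM in non-induced cells (authors' deposited table; log2 1.10, implied standard error 0.15). Xiap, whose product binds and blocks caspase-9, stood at 29.4 FPKM in induced and 22.5 FPKM in non-induced cells (authors' deposited table; log2 0.39, implied standard error 0.14).

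**Figure D5:**
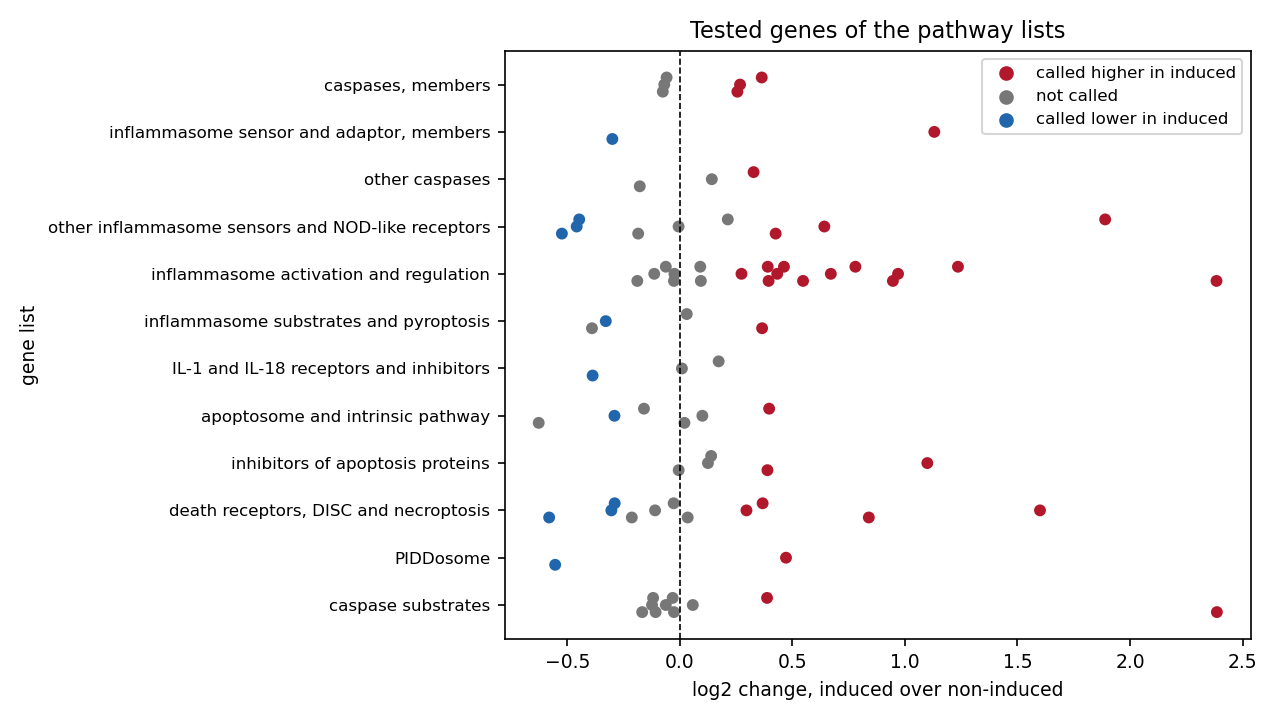
Log2 change (induced over non-induced) of each tested gene in the pathway lists, 1 point per gene, coloured by the authors' call, with the 8 genes in the top 2 rows. The row of inflammasome activation and regulation has 12 points called higher and 0 called lower, and the row of other sensors has 3 of each.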

How the data were processed

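Per the labels' protocols, RNA was isolated with a Qiagen kit and stranded mRNA libraries were sequenced. The submitters' processing notes name Trim Galore 0.2.8.1, TopHat2 2.0.9, Cufflinks, Cuffdiff 2.1.1 and mm10. The annotation they used is not given in the sources used here. Their table, deposited by the authors, holds 1 FPKM value per gene and group, a log2 fold change (induced over non-induced), Cuffdiff's statistic (a score), and p- and q-values. The deposited q-values were recomputed by the Benjamini-Hochberg method over 10657 tested rows with a largest difference of 5.15e-07, and no deposited p-value lies below 5e-05.

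The file has no library values, so the authors' Cuffdiff test was used and no standard deviation is given. Implied standard errors are the log2 change divided by the statistic, and 95% intervals use 1.96 of them. The fragment step came from genes with 1 transcript of at least 1000 bases. There 66.3% (induced) and 71.0% (non-induced) of the lowest values lay within 0.15 of a whole step. The step was picked to make this share largest, so the 30% that an even spread gives for a fixed step is not a test of it.

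Calculations used pandas 2.3.3, numpy 2.4.6 and scipy 1.17.1. Calling from normal p-values by the Benjamini-Hochberg method was tested on simulated normal statistics, which does not test the deposited Cuffdiff p-values. Gene coordinates are GENCODE M21 (mm10). Promoters are RefSeq windows, matched by symbol for 8 of 8 genes. All 8 genes are named whatever their values, with Spi1, and every called gene of each pathway list except some that are not reported here. The genes and lists were chosen with earlier results of these data known. Protein sequences were not used here. Alternatives covered the p-value, the q threshold, a fold minimum, a 1 FPKM filter, shared loci, pseudocounts and centring.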

Additional observations from a re-analysis of the deposited data

How the results depend on the processing

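The 4 rises and 1 fall were also counted over rows with at least 1 FPKM in either group, and without rows that share a locus. The lowest level of the 8 was 3.18 FPKM, and only Casp9, which was not called, shares a locus. Neither filter could therefore remove a called gene. With the statistic read as a normal deviate, 1 of the 8 genes was called higher (Nlrp3, q = 8.51e-11) and 0 lower. Tested rows called then numbered 1612 in place of 3744. At an unadjusted normal p under 0.05 the numbers for the 8 genes were 2 higher and 1 lower. The share of all tested rows at that threshold is not given here, so these numbers are not read as a result. With q-values from the normal p-values, Casp2 missed the threshold narrowly (q = 0.0521), and Pycard (0.209), Casp1 (0.274) and Casp8 (0.326) by more. At a deposited q under 0.01, 2 were called higher (Casp2 and Nlrp3) and 1 lower, beside 2759 of all 10657 tested rows called in either direction. With a change of at least 1.5-fold required, 1 was called higher (Nlrp3) and 0 lower, and 1086 tested rows were called. The causes of these losses were not tested, apart from the stricter thresholds themselves. Log2 changes of the 8 genes kept their sign after centring on the median of tested rows. That median was -0.01 and the smallest change was that of Casp6, at -0.06, so centring could not change a sign. Pseudocounts of 0.1 and 1 FPKM, added to both group values, cannot change a sign and show only how far the size moved. The largest shift was that of Nlrp3, to 0.93 with a pseudocount of 1. No paired analysis was possible because the deposited table has group values only; leaving out single replicates was not run for the same reason. Depth of single libraries is unknown.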

Other observations

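Proteins that caspases cut, and the receptors for the cytokines that caspase-1 matures, were read from lists chosen with earlier results of these data known. Of 10 tested caspase substrates and related genes, 2 were higher and 0 lower by the authors' Cuffdiff q-value (2 and 1 at an unadjusted p under 0.05, 2 and 0 with normal p-values). That share is close to the 19.0% of all tested rows called higher and is not read as a result about these genes. Gsn, the actin-severing protein gelsolin, stood at 4.06 FPKM in induced and 0.777 FPKM in non-induced cells (authors' deposited table; log2 2.39, implied standard error 0.22). Lmnb1, a nuclear lamin gene, stood at 290.3 FPKM in induced and 221.9 FPKM in non-induced cells (authors' deposited table; log2 0.39, implied standard error 0.13). Parp1, the DNA repair enzyme, was not called, at 117.9 and 132.4 FPKM in induced and non-induced cells (authors' deposited table). Lmna, which encodes the lamin that caspase-6 cuts, was untested at 0.127 FPKM in induced and 0.16 FPKM in non-induced cells.

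Of 9 interleukin 1 and interleukin 18 receptor and inhibitor genes, 3 were tested. Sigirr, an inhibitory receptor, was lower at 11.1 FPKM in induced and 14.6 FPKM in non-induced cells (authors' deposited table; log2 -0.39, q = 0.000287). The signalling receptor gene Il1r1 was untested, at 0.00333 FPKM in induced cells and listed at 0 in non-induced cells, and Il18r1 and Il18rap were listed at 0 in both groups.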
